A study of Rattus norvegicus with 12 samples.

Results

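Genes of airway basal cells and of squamous differentiation were followed in bronchi of rats that inhaled 2,3-pentanedione (PD), a component of artificial butter flavoring. The 10 genes were Tp63, Ngfr, Sfn, Dsp, Dsc2, Pkp1, Tgm1, Ivl, Sprr1a and Gpr15lg, chosen by their symbols in the annotation of the array, out of 14217 genes measured. Each was represented by its probe set of highest mean log2 signal over all 12 arrays. Keratins were not among them. Tgm1 and Gpr15lg were picked for their high signal in fibrotic bronchi, so their differences between fibrotic bronchi and either other group are given as a description without a test. The list of 10 as a whole was proposed with earlier results of these data known. Shares over all probe sets that stand beside its counts are therefore a description, not a test of the list.

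All groups were male Wistar-Han rats, 6 to 7 weeks old on arrival, and bronchial tissue was cut from frozen sections of the right diaphragmatic lobe by laser capture microdissection. Control bronchi came from rats that breathed air (n = 6 arrays), and the microdissected tissue was normal epithelium with the lamina propria, muscle and adventitia beneath it. Rats given 200 ppm PD for 6 hours a day over 2 weeks supplied fibrotic bronchi (n = 3 arrays), captured as intraluminal polyps or plaques with the wall under them, and non-fibrotic bronchi (n = 3 arrays), captured as separate branches lined by normal-appearing or regenerating epithelium. Some non-fibrotic tissue came from the same rats as fibrotic tissue, but the labels do not tie a specimen to a rat. The p-values therefore measure the spread between these specimens.

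Basal cells are the resident stem cells of the airway epithelium, held to the basement membrane, and after injury they divide and give rise to secretory and ciliated cells. When injury persists, airway epithelium can take on a squamous form, in which layered cells joined by many desmosomes build a cornified envelope, a shell of proteins cross-linked by transglutaminase under the cell membrane. Tp63 and Ngfr mark basal cells, Dsp, Dsc2 and Pkp1 are parts of desmosomes, and Tgm1, Ivl and Sprr1a are the enzyme and substrates of the envelope.

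Promoter sequence was looked up because the AP-1 family of transcription factors is known to act on many genes of squamous differentiation. RefSeq (assembly GRCr8) gave a promoter, from 250 bases before to 50 after the start, for 9 of the 10 genes, all but Ngfr. The AP-1 motif TGANTCA, which reads the same on both strands, was found in 2 of the 9, Sprr1a and Sfn, and in 7.33% of 33469 rat promoters of the same length. A pair of CATG cores 6 bases apart, the core of a p53-family site, was in 0 of the 9 and in 0.457% of all promoters. The stretches that hold the motif are shown 5′ to 3′ on the minus strand, at chr2:180752715-180752794 for Sprr1a and chr5:151111980-151112059 for Sfn, with the motif in capitals. A match is only a match of letters.
Sprr1a: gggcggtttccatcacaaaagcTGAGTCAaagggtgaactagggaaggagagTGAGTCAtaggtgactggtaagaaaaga
Sfn: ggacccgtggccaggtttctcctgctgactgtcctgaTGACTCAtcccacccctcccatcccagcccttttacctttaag

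Values are log2 MAS5 signals, scaled to the same trimmed mean on each array, and are compared between arrays within a probe set, never between genes. Transcripts that rats do not carry reached up to 6.52 on this scale, and a signal below that was taken as not above background. Differences are differences of group means on the log2 scale with a standard error (SE), and adjusted p-values are from limma with Benjamini-Hochberg adjustment over 31042 probe sets, called under 0.01. Where a whole group was under 6.52, only a lower bound of the fold is given, and where the mean of the other group was under it too, no difference is given.

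In fibrotic bronchi Sfn and Dsc2 rose against air control, by 3.72-fold and 3.38-fold, and they were the 2 genes called of the 8 that were tested (9.39% of all probe sets were called, 2.99% higher and 6.4% lower). Pkp1 was above background in every fibrotic array and in no other, and Tgm1 and Gpr15lg were higher in every fibrotic array than in any other array. The mean of Dsp was 3.42-fold lower, with an adjusted p of 0.0122 that missed the threshold. Tp63, Ngfr, Ivl and Sprr1a did not pass the test either. In tissue RNA of this kind, fewer cells of a type and less RNA in each cell cannot be told apart. Adjusted p fell under 0.05 for 4 of the 8 (Sfn, Dsc2, Dsp and Pkp1), against 17.9% of all probe sets. With signals under 6.52 set to it, the median difference of these 8 was 0.53, beside 0 over all probe sets. A probe set under 6.52 on all arrays counts as 0 there. In 4 of the 8 every fibrotic array lay above every control array, which held for 12.3% of all probe sets.

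Between non-fibrotic bronchi of PD-exposed rats and control, limma called 0 of the 10 genes (0.522% of all probe sets were called). None had an adjusted p under 0.05 (5.83% of all probe sets did), and at an unadjusted p under 0.05 there were 2, Ivl and Tgm1. The share of all probe sets at that unadjusted p is not given, so this count is not read as a result. Only Ivl had groups that did not overlap (9.23% of all probe sets lay higher on every non-fibrotic array). All control arrays of Ivl and its non-fibrotic mean were under background, so that order is not read as a rise. Between fibrotic and non-fibrotic bronchi limma called 0 of the 8 tested (3.82% of all probe sets, 1.07% higher and 2.75% lower). Sfn and Pkp1 had an adjusted p under 0.05 (9.57% of all probe sets). At an unadjusted p under 0.05 there were 4 in this comparison, again without a share of all probe sets beside them. There the fibrotic arrays lay above the non-fibrotic ones in 4 of the 8, against 10.9% of all probe sets. The median difference of the 8, with signals under 6.52 set to it, was 0.67, beside 0 over all probe sets taken in the same way. Both exposed groups were set against the same controls, so their differences are not independent.

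**Figure D1:**
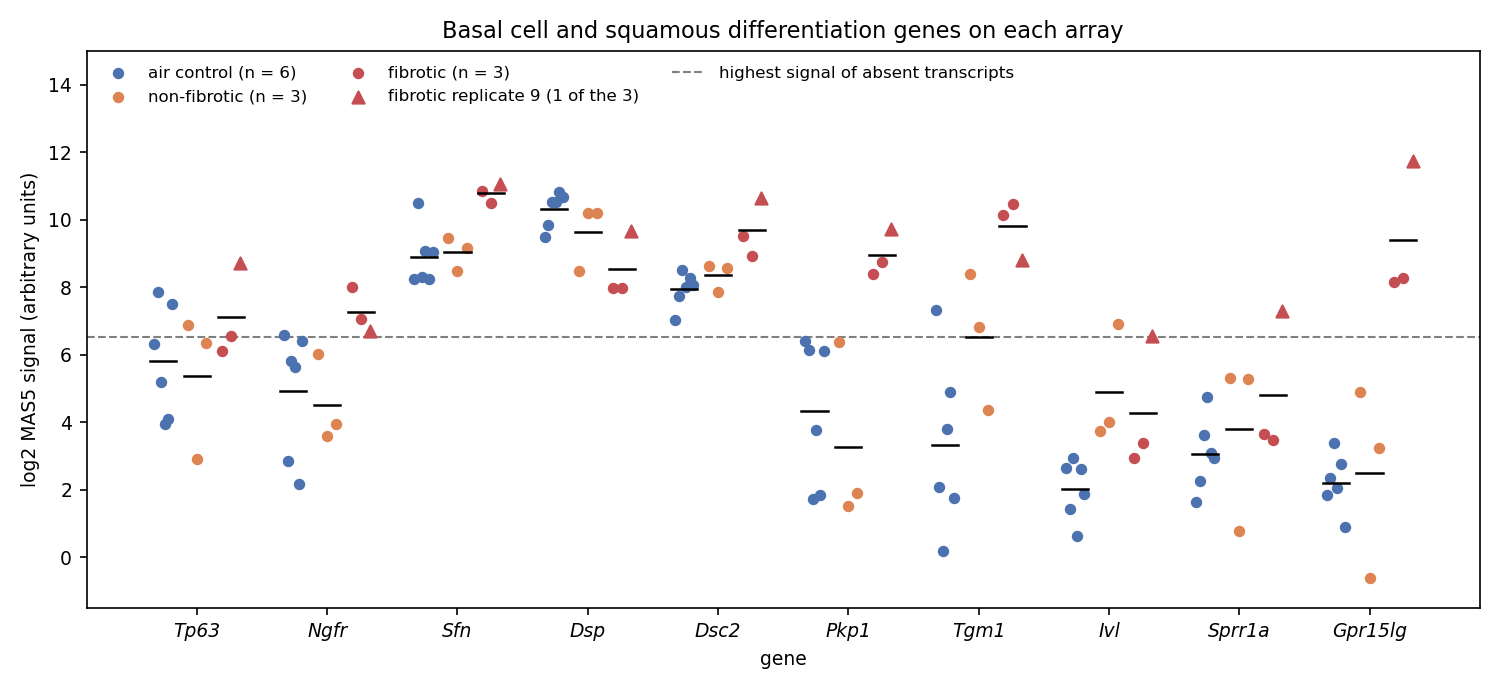
Log2 MAS5 signal (vertical axis) of the 10 genes on each of the 12 arrays, by group (air control, non-fibrotic, fibrotic), with a bar at the group mean, a triangle for fibrotic replicate 9 and a dashed line at 6.52, the highest signal of an absent transcript. Pkp1 and Gpr15lg are above the line only in the 3 fibrotic arrays, whereas the mean of Dsp is lowest there.

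**Figure D2:**
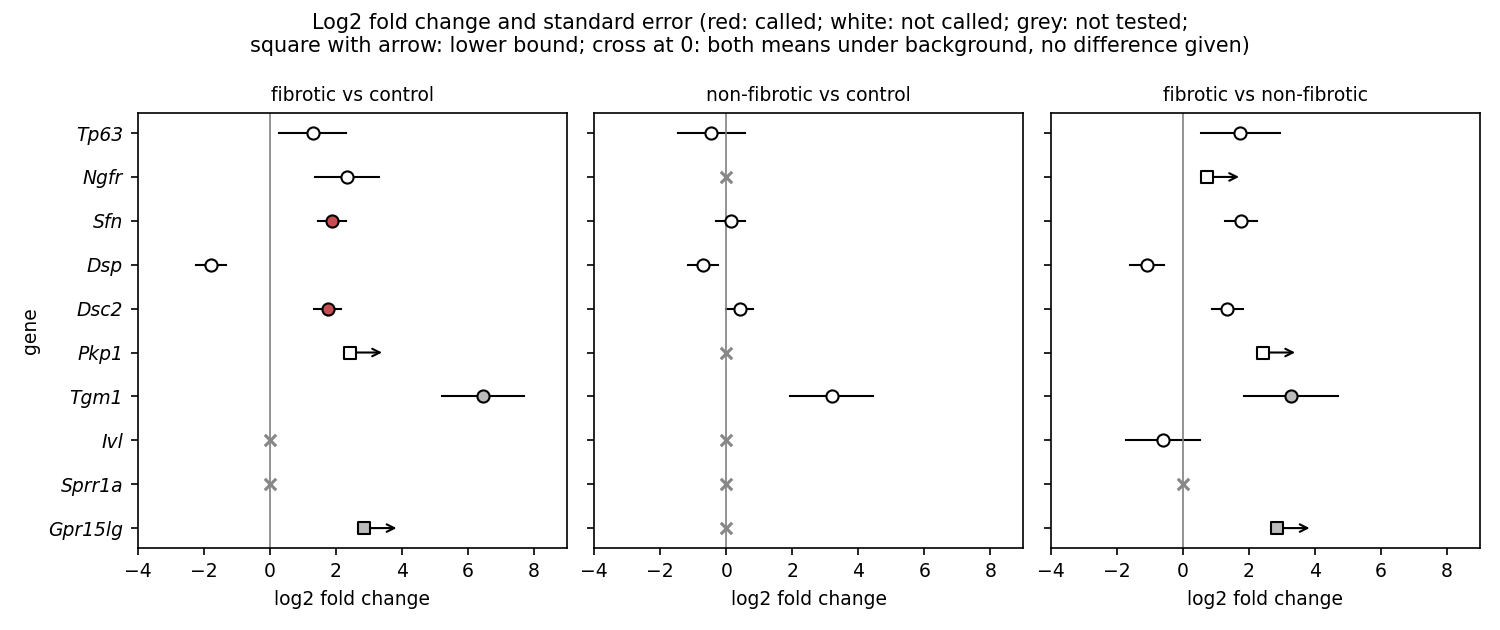
Log2 difference of group means (horizontal axes) of each gene, with lines of 1 SE to each side, in 3 panels for the 3 pairs of groups, where red points were called, white were not, grey were not tested, squares with an arrow are lower bounds and crosses mark pairs with no difference given. The called points are Sfn and Dsc2 in the panel of fibrotic against control bronchi, both above 0.

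Tp63 encodes the transcription factor p63, which maintains basal cells and stratified epithelia. Its signal in the 6 control arrays ran from 3.96 to 7.87 with a median of 5.74, in non-fibrotic bronchi it was 6.88, 2.90 and 6.33 (replicates 4, 8 and 10), and in fibrotic bronchi 6.11, 6.54 and 8.71 (replicates 3, 7 and 9). Fibrotic replicate 9 had the highest signal of all, the others lay within the range of the controls, and the 3 groups overlapped. The difference between fibrotic and control bronchi was 1.30 (SE 1.03, adjusted p = 0.414), 0.35 with signals under 6.52 set to it, and 0.51 without fibrotic replicate 9. Non-fibrotic bronchi differed from control by -0.45 (SE 1.03, adjusted p = 0.811). Fibrotic bronchi differed from non-fibrotic by 1.75 (SE 1.18, adjusted p = 0.412). The other probe set of Tp63, which the choice did not use, differed between fibrotic and control bronchi by 0.36 (adjusted p = 0.863). Among the controls, Tp63 was above background in controls 2 and 6 alone.

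Ngfr, the low-affinity nerve growth factor receptor, lies on the surface of basal cells and of Schwann cells. Control signals ran from 2.18 to 6.59 with a median of 5.72, non-fibrotic signals were 6.00, 3.60 and 3.94, and fibrotic signals 8.00, 7.04 and 6.71. All 3 fibrotic arrays were above all 9 others, of which a single control passed the background level. The difference from control was 2.34 (SE 0.97, adjusted p = 0.109), which did not pass the test, and 0.72 with dim signals set to the background level. Against non-fibrotic bronchi, all under background, the fibrotic level was at least 1.66-fold higher (adjusted p = 0.149). The means of non-fibrotic and control bronchi were both under background (adjusted p = 0.827). Of 17 Schwann cell and nerve markers 2 rose in fibrotic bronchi, Egr2 and Ncam1 (2.99% of all probe sets rose). The mean level of the list ran from 6.07 to 6.65 in fibrotic, 5.53 to 6.23 in non-fibrotic and 4.98 to 5.90 in control arrays. The means of Sox10, Mag, Foxd3 and Gfap were under background in all groups. The part of nerve in the Ngfr signal was not tested.

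Sfn encodes 14-3-3 sigma, a protein of stratified epithelia that restrains the cell cycle and is a target of p53. Control signals ran from 8.23 to 10.49 with a median of 8.67, non-fibrotic signals were 9.46, 8.46 and 9.17, and fibrotic signals 10.84, 10.50 and 11.05. Fibrotic arrays lay above every control, although control 2, at 10.49, came just under the lowest of them. Sfn rose by 1.90 against control (SE 0.43, adjusted p = 0.00597). Non-fibrotic bronchi differed from control by 0.13 (95% confidence interval -0.78 to 1.05, adjusted p = 0.869). Fibrotic bronchi were 1.76 above non-fibrotic ones (SE 0.50, adjusted p = 0.0345), without overlap. The call against control was lost (adjusted p = 0.0106 to 0.0330) when control 3, 4, 5 or 6 or fibrotic replicate 3, 7 or 9 was left out, and the difference was 1.43 (adjusted p = 0.211) against controls 1 and 2 alone. It was also lost with the form of the labels as a block, at 1.43 (adjusted p = 0.112) with a fixed and 1.77 (adjusted p = 0.0162) with a random block.

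Dsp encodes desmoplakin, which links the desmosome to keratin filaments. Control signals ran from 9.49 to 10.82 with a median of 10.52, non-fibrotic signals were 8.48, 10.19 and 10.19, and fibrotic signals 7.97, 7.97 and 9.66. Fibrotic replicates 3 and 7 were the lowest arrays of all, while replicate 9 lay within the controls, so that the groups overlapped. The difference from control was -1.78 (SE 0.45, adjusted p = 0.0122), which missed the threshold. Controls 1 and 2 averaged 9.66 and controls 3 to 6 averaged 10.64, and the difference was -1.13 against controls 1 and 2 alone (adjusted p = 0.409) and passed the test against controls 3 to 6 alone (adjusted p = 0.0055). It also passed without control 1, non-fibrotic replicate 4 or fibrotic replicate 9 (adjusted p = 0.00308 to 0.00706). Other removals weakened it. The adjusted p was 0.0770 without fibrotic replicate 3 and 0.0758 without replicate 7. Without control 3, 4, 5 or 6 it was 0.0251 to 0.0276. Non-fibrotic bronchi differed from control by -0.69 (SE 0.45, adjusted p = 0.343) and from fibrotic bronchi by a fibrotic-minus-non-fibrotic difference of -1.09 (SE 0.52, adjusted p = 0.226). The other probe set of Dsp was under background on all arrays.

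Dsc2 encodes desmocollin 2, a cadherin that joins the desmosomes of neighbouring cells. Its control signals ran from 7.02 to 8.51 with a median of 8.04, non-fibrotic signals were 8.63, 7.84 and 8.56, and fibrotic signals 9.51, 8.93 and 10.64. Every fibrotic array was above every other array, and fibrotic replicate 9 was the highest. Dsc2 rose by 1.76 against control (SE 0.41, adjusted p = 0.00703). Non-fibrotic bronchi differed from control by 0.41 (95% confidence interval -0.46 to 1.28, adjusted p = 0.544). The difference between fibrotic and non-fibrotic bronchi was 1.35 (SE 0.47, adjusted p = 0.0886). The call was lost without control 2, 4, 5 or 6 or fibrotic replicate 3 (adjusted p = 0.0108 to 0.0228), and without fibrotic replicate 9 the difference was 1.28 (adjusted p = 0.0593). Against controls 1 and 2 alone it was 2.32 (adjusted p = 0.0394) and against controls 3 to 6 alone 1.47 (adjusted p = 0.0148).

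Pkp1 encodes plakophilin 1, the desmosomal plaque protein of the upper layers of squamous epithelium. In the controls its signal ran from 1.72 to 6.39 with a median of 4.94, non-fibrotic signals were 6.36, 1.53 and 1.89, and fibrotic signals 8.40, 8.74 and 9.71. No control or non-fibrotic array was above background, and all 3 fibrotic arrays were. The fibrotic level was at least 5.39-fold higher than control (adjusted p = 0.0153) and than non-fibrotic (adjusted p = 0.0187), neither of which passed the threshold of 0.01. The spread below the background level enters this test. With signals under 6.52 set to it, the difference from control was 2.43 and passed (adjusted p = 9.75e-05). That floor gives every control and non-fibrotic array the same value and removes their spread, so this p-value is no support for a difference. Without non-fibrotic replicate 4 the differences from control and from non-fibrotic bronchi passed (adjusted p = 0.00691 and 0.00290). Other removals weakened them. Against control the adjusted p was 0.0435, 0.0495 and 0.0700 without fibrotic replicate 3, 7 or 9. Against non-fibrotic bronchi it was 0.0854 without non-fibrotic replicate 8 and 0.0759 without replicate 10. The test against controls 1 and 2 alone gave an adjusted p of 0.310. Between non-fibrotic and control bronchi, both under background, the adjusted p was 0.605.

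Dsp and Dsc2 are part of the same junction, and their differences from control had opposite signs. Of 11 other measured genes of desmosomes and their plaques (over all probe sets 2.99% rose and 6.4% fell), 1 rose in fibrotic bronchi, Dsg2 (desmoglein 2, by 1.28, adjusted p = 0.00714), and 2 fell, Perp (a desmosomal membrane protein, -1.59, adjusted p = 0.00275) and Ppl (periplakin, -1.63, adjusted p = 0.0085). The median of the 11 was -1.05. Among the 11 is Des (desmin), which is a smooth muscle marker and not a desmosome gene. It was not called, but it enters this median and the recounts. Pkp2, another plakophilin, was at 7.51, 6.77 and 4.70 in the fibrotic arrays, against 7.57 to 9.20 in the controls. It differed by -2.15 (adjusted p = 0.0134), which missed the threshold. Without fibrotic replicate 9, none of these genes was called higher and 1 was called lower. Against controls 3 to 6 alone 0 rose and 4 fell, and against controls 1 and 2 alone none was called. In non-fibrotic bronchi 0 of the 11 were called, where 0.522% of all probe sets were. Dsg2 was still higher there, at 10.11, 11.70 and 10.29, than in every control, at 9.20 to 9.55. Over all probe sets 9.23% lay higher on every non-fibrotic array. Dsg2 was therefore above the controls in both exposed groups.

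**Figure D3:**
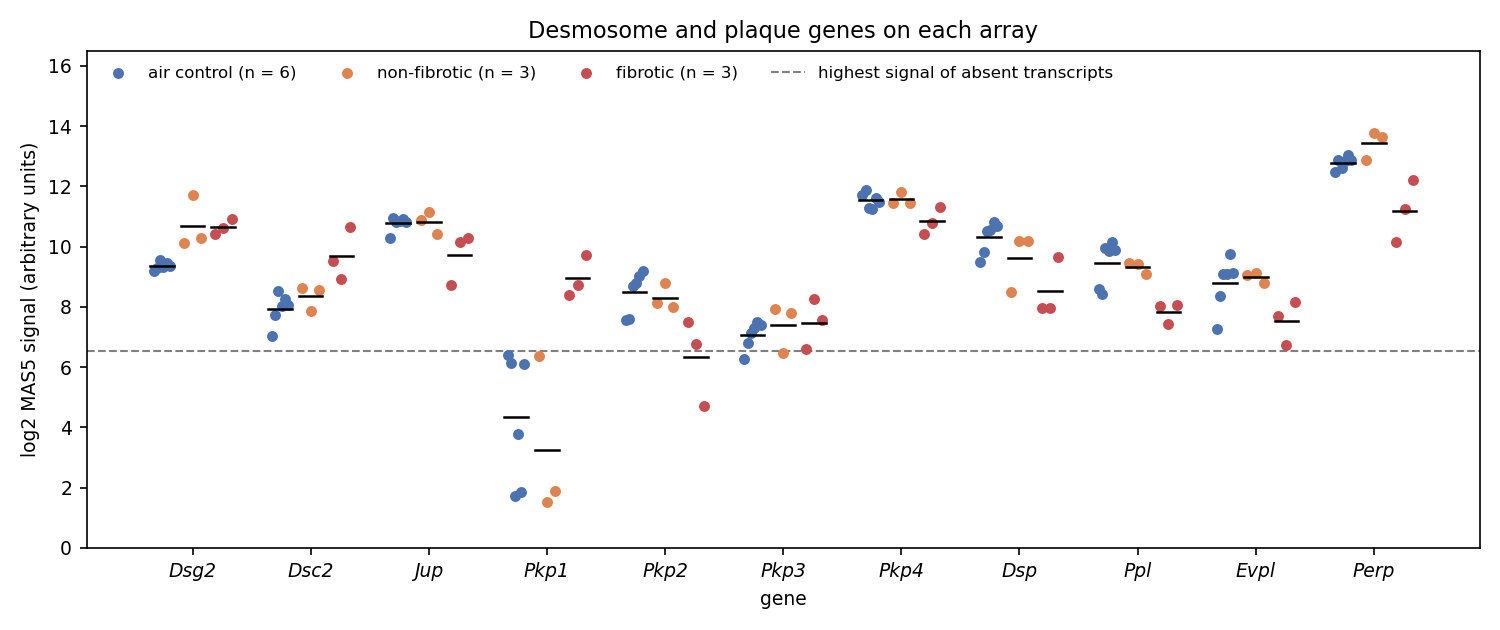
Log2 MAS5 signal (vertical axis) of 11 desmosome and plaque genes on each of the 12 arrays, by group, with bars at group means and a dashed line at the background level of 6.52. In all 3 fibrotic arrays Dsg2, Dsc2 and Pkp1 are above every control, while Jup, Pkp2, Ppl and Perp are below every control. Dsg2 is also above every control in all 3 non-fibrotic arrays. Over all probe sets 12.3% were above every control on all fibrotic arrays and 9.23% on all non-fibrotic arrays. The share below is not given.

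Tgm1 encodes transglutaminase 1, the enzyme that cross-links the cornified envelope. Control signals ran from 0.17 to 7.32 with a median of 2.93, non-fibrotic signals were 8.38, 6.82 and 4.37, and fibrotic signals 10.14, 10.46 and 8.81. Fibrotic arrays were above all others, 2 of the 3 non-fibrotic arrays were above background, and among controls only control 1 was. The fibrotic mean, 9.80 ± 0.87 (SD, n = 3), was 6.47 above that of the controls, or 3.15 with dim signals set to the background level. It was 3.28 above the non-fibrotic mean, or 2.56 on the same footing. Non-fibrotic bronchi, in which Tgm1 had not been picked, differed from control by 3.19 (SE 1.24, adjusted p = 0.121), or 0.59 with the level applied, and the groups overlapped at control 1.

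Ivl encodes involucrin, a scaffold of the envelope. In control bronchi it ran from 0.62 to 2.95 with a median of 2.24, non-fibrotic signals were 3.74, 4.01 and 6.91, and fibrotic signals 2.93, 3.37 and 6.54. Only non-fibrotic replicate 10 and fibrotic replicate 9 passed the background level, and the non-fibrotic arrays lay above every control. Since all controls and the means of both exposed groups were under background, no difference from control is given. The test gave an adjusted p of 0.0801 for non-fibrotic and 0.120 for fibrotic bronchi. The fibrotic and non-fibrotic means differed by -0.61 (SE 1.12, adjusted p = 0.800), or -0.12 with dim signals set to the background level.

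Sprr1a encodes a small proline-rich protein, a cross-bridge of the envelope. Control signals ran from 1.64 to 4.75 with a median of 3.00, non-fibrotic signals were 5.31, 0.79 and 5.26, and fibrotic signals 3.64, 3.47 and 7.28. Fibrotic replicate 9 alone was above background, and the groups overlapped. The mean of every group and all control and non-fibrotic arrays were under background, so no difference is given. Against control the adjusted p was 0.303 in fibrotic and 0.705 in non-fibrotic bronchi, and between these groups it was 0.697. Sprr1b, a close relative that may share probe sequence with Sprr1a, was under background on all arrays.

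Gpr15lg encodes a secreted ligand of GPR15, a receptor that guides T cells to epithelia. Its signal in control bronchi ran from 0.88 to 3.39 with a median of 2.18, non-fibrotic signals were 4.91, -0.62 and 3.24, and fibrotic signals 8.15, 8.27 and 11.75. All 9 control and non-fibrotic arrays were under background and all 3 fibrotic arrays above it, with replicate 9 far above the other two. The fibrotic level, 9.39 ± 2.04 (SD, n = 3), was at least 7.31-fold higher than in either other group, and at least 3.23-fold higher without replicate 9, 11.2-fold without replicate 3 and 10.8-fold without replicate 7. Non-fibrotic and control bronchi were both under background (adjusted p = 0.888). Of 14 T cell and natural killer cell markers 1 rose in fibrotic bronchi, Klrb1c (2.99% of all probe sets rose). The mean level of the list ran from 8.15 to 8.40 in fibrotic arrays, against 4.58 to 7.99 in control and 4.96 to 7.11 in non-fibrotic arrays. The part of such cells in the Gpr15lg signal was not tested. The receptor gene, Gpr15, was among the genes listed as such markers, and its own values are not given.

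The fibrotic arrays were not alike for these genes. Replicate 9 had the highest signal of the 3 in 8 of the 10 genes and the lowest in Ngfr and Tgm1, and all 10 of its genes were above background, against 7 in replicate 3 and 8 in replicate 7. Basal cell keratins (Krt5, Krt14, Krt15 and Krt17), which mark the same cells, had a mean level of 12.61 in replicate 9 and of 8.13 in the lowest fibrotic array, and none of the 4 was called against control. In the controls the mean of these keratins was 10.08, 10.92 and 9.64 in controls 1, 2 and 6, and 6.30, 5.15 and 5.88 in controls 3, 4 and 5. Tp63 was also highest in controls 1, 2 and 6. Among the non-fibrotic arrays replicate 4 was highest in 8 of the 10 genes and replicate 8 lowest in 7.

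The genes most like each of these in pattern over the 12 arrays were taken by the root mean square difference of centred log2 signals among 14217 genes, as a description. For Pkp1 the nearest was Krt17 (1.22), followed by Slc26a4 (1.25) and Timp1 (1.34). For Gpr15lg they were Nkain1 (1.49), Crabp2 (1.53) and Krt6c (1.59), and for Tgm1 Areg (1.66), Spp1 (1.75) and Klrb1c (1.76). Sfn was nearest to Crmp1 (0.32), Dsc2 to Col16a1 (0.30), Dsp to Nr1d1 (0.33), Ngfr to Cd40lg (0.71) and Tp63 to Slco1a6 (0.78). A small distance is partly a matter of a small range, so these values are not compared between genes.

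Other genes of the same programmes moved in both directions. Over all probe sets 2.99% rose and 6.4% fell in fibrotic bronchi against control. Of 23 measured basal cell genes other than keratins, 4 rose. The 3 of smallest p were Pdpn (podoplanin, by 2.77, adjusted p = 8.26e-06), Lamb3 (laminin beta 3 of the basement membrane, by 4.90, adjusted p = 1.30e-04) and Cd44 (by 2.08, adjusted p = 5.09e-04). With dim control signals set to the background level the difference of Lamb3 was 4.19. Lamb3 was already singled out by the study on these arrays and is not independent evidence. Perp, Lgr6 and Bcam fell, and the median of the 23 was 0.082. Of 47 cornified envelope and keratinocyte differentiation genes, 4 rose and 5 fell, with a median of 0.71. Those that rose with the smallest p were Fabp5 (a fatty acid binding protein, by 2.55, adjusted p = 0.00337), Tchh, whose mean stayed under background, and Dmkn, at least 1.11-fold. Of those that fell, the smallest p belonged to Cst6 (a protease inhibitor, -2.99, adjusted p = 3.89e-05), S100a14 (-1.10) and S100a16 (-1.70). In 26 of the 47 every control array was under background, and the median was taken without a floor. Between non-fibrotic bronchi and control the median of the 47 was 0.65, close to that of fibrotic bronchi. Between fibrotic and non-fibrotic bronchi it was -0.30.

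Of 22 transcription factors of stratified epithelium, 1 rose, Prdm1, by at least 4.91-fold (adjusted p = 4.01e-04), and 5 fell, led by Sox2 (-3.69, adjusted p = 2.49e-06), Elf3 (-2.32, adjusted p = 8.67e-05) and Znf750 (-3.48, adjusted p = 1.55e-04). Znf750 is a factor of terminal keratinocyte differentiation, and Sox2 one of airway and squamous progenitors. The median of the 22 was -0.50. In non-fibrotic bronchi none of the genes of these lists was called, where 0.522% of all probe sets were. Between fibrotic and non-fibrotic bronchi, where 1.07% of all probe sets were higher and 2.75% lower, 3 basal cell genes were higher and 3 lower, 1 envelope gene was higher and 1 lower, and 2 transcription factors were higher and 2 lower. Without fibrotic replicate 9 the counts against control were 3 higher and 3 lower for basal cell genes, 1 and 4 for envelope genes, and 1 and 5 for transcription factors. Against controls 1 and 2 alone they were 1 and 0, 0 and 0, and 0 and 1.

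**Figure D4:**
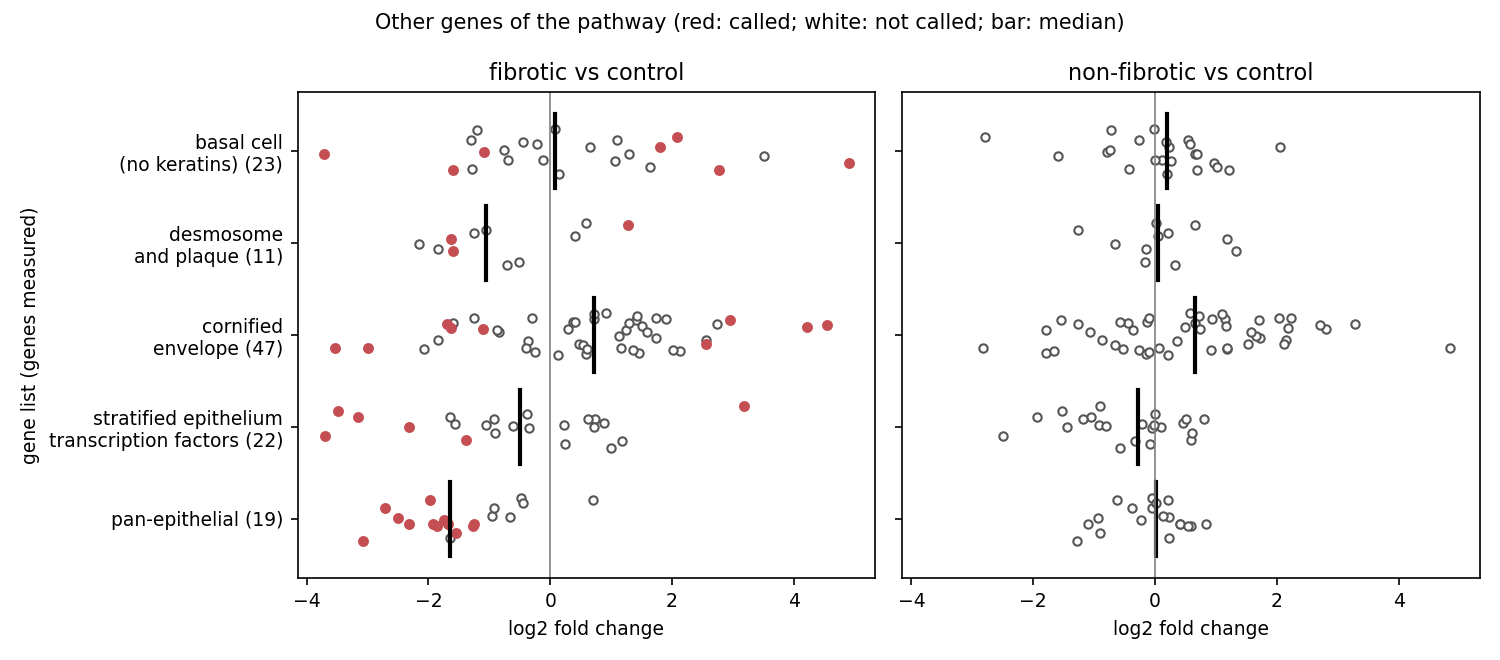
Log2 differences (horizontal axes) of every measured gene of the lists, between fibrotic and control and between non-fibrotic and control bronchi, with called genes in red, others in white and a bar at each list's median. Called genes of the basal, envelope and transcription factor lists lie on both sides of 0 in fibrotic bronchi, and none is called in non-fibrotic bronchi.

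Markers of other cells differed between the groups. Over all probe sets 2.99% rose and 6.4% fell in fibrotic bronchi against control. Of 19 measured pan-epithelial genes none rose there and 12 fell, among them Esrp1 (-1.68), Cgn (-3.07) and Cldn7 (-2.50). The mean level of the list ran from 9.15 to 9.78 in fibrotic arrays, 10.61 to 11.12 in non-fibrotic and 10.58 to 11.09 in control arrays. All 9 ciliated cell markers and all 12 club cell markers fell, while 8 of 15 fibroblast markers and 7 of 13 macrophage markers rose. In non-fibrotic bronchi 1 ciliated cell marker and 3 club cell markers fell, where 0.522% of all probe sets were called in either direction. The mean level of ciliated cell markers was 11.09 to 11.65 in non-fibrotic, 11.76 to 12.23 in control and 7.01 to 8.08 in fibrotic arrays. For club cell markers it was 10.37 to 11.60, 12.05 to 12.48 and 6.24 to 7.80. These differences and the kind of tissue captured cannot be told apart. The fibrotic capture was of lesions with the wall under them, and the other captures were of bronchial wall and epithelium without fibrosis. Their part in the values of the 10 genes was not tested. Array quality differed as well. The GAPDH 3′ signal exceeded the 5′ signal by 0.70 to 0.90 in controls 3 to 6, whose labels have another form than the others, by 1.16 and 2.03 in controls 1 and 2, and by 1.59 to 2.35 in exposed arrays. Poly-A control transcripts averaged 2.31 and 2.33 in controls 1 and 2 and 8.02 to 11.06 elsewhere.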

How the data were processed

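The intensity values are MAS5 signals that the authors made with Affymetrix Command Console and deposited on a linear scale, 1 per probe set and array, each array scaled to the same trimmed mean. RNA from laser-captured bronchi had been amplified before labelling. The MAS5 version is not given in the sources used here. The probe set identifiers match a rat 3′ array, although the series text names another rat array. Gene symbols came from the annotation of the array: 20826 probe sets had 1 symbol, 436 had several and 9780 had none. The 57 Affymetrix controls were left out, and no filter on signal was used.

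Signals were taken to log2 with no pseudocount. A model of the 3 groups was fitted to 31042 probe sets with limma 3.58.1 under R 4.3.3 (lmFit, then eBayes with trend), two-sided, and p-values were adjusted by Benjamini-Hochberg within each contrast and called under 0.01, without the error weights used in the study. The fit was tested on simulated data. Background was the highest of 84 signals of absent bacterial transcripts. The number of arrays limits the precision. The genes and lists were chosen with earlier results of these data known. All 10 genes are named, with at most 3 called genes of smallest p per list and direction and the 3 genes of smallest root mean square difference. The keratins, Pkp2, Sprr1b and markers absent from all arrays were named outside this rule, after their values were seen. Alternatives were an adjusted p under 0.05, an unadjusted p with a fold minimum, a floor at background, a pseudocount of 16, quantile and median normalization, other summaries of probe sets, dropping the dimmest 40% of probe sets, no intensity trend, ordinary variances, array weights, fits of 2 groups only, either set of controls alone, the label sets as a block, and leaving out each array.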

Additional observations from a re-analysis of the deposited data

Results flagged for a closer look

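Sfn in control 2 (10.49) lay far above the other 5 controls: its gap to the next array was 0.629 of the range of the group, past Dixon's critical value for 6 arrays. Over the 12 probe sets of these genes, 1 of 12 control groups passed, and chance flags about 1 in 20. Without control 2, Sfn rose against control by 2.22, and its difference between fibrotic and non-fibrotic bronchi passed the test (adjusted p = 0.00589).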

How the results depend on the processing

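Between fibrotic bronchi and control, 2 of 8 genes were called. The count was 4 at an adjusted p under 0.05, with array weights and with the arrays of 2 groups only, 1 with a floor at background (Pkp1) and with the label sets as a fixed or a random block (Dsc2 in both), and 0 without an intensity trend, with ordinary variances and against controls 1 and 2 alone. It ran from 0 to 4 when single arrays were left out. It was 4 with all 10 genes counted, an alternative chosen after seeing the data, as were the recounts of lists. Between fibrotic and non-fibrotic bronchi the count of 0 became 2 at an adjusted p under 0.05, 1 with a floor, a pseudocount of 16 or all 10 genes counted, and 0 to 1 with single arrays left out. In non-fibrotic bronchi it was 0 under all 29 alternatives. Calls of Pkp1 with the floor are no support for a difference, since the floor removes its spread in control and non-fibrotic bronchi.

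Signs turned only for differences that had not passed the test. Against control, non-fibrotic bronchi gave 0.61 for Tp63 with array weights and 0.19 against controls 3 to 6 alone, and -0.33 for Sfn against controls 1 and 2 alone and with the fixed block. With single arrays left out the ranges were -0.080 to 0.45 for Sfn and -1.20 to 0.78 for Tp63, and between fibrotic and non-fibrotic bronchi -1.74 to 0.41 for Ivl. No alternatives are given for the 8 of 30 differences with both means, and every array of at least 1 group, under background. The cause was not tested. Dropping the dimmest 40% of probe sets kept 3 of the 10 genes, Sfn, Dsp and Dsc2.

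Lists were recounted as genes higher and lower in fibrotic bronchi. With the random block they gave 4 and 1 basal cell genes, 0 and 1 desmosome genes, 2 and 3 envelope genes, 1 and 5 transcription factors and 0 and 10 pan-epithelial genes. Against controls 3 to 6 alone they gave 5 and 3, 0 and 4, 4 and 5, 2 and 5, and 1 and 12. Against controls 1 and 2 alone 2 pan-epithelial genes were lower. Signals near background limit Ivl, Sprr1a, Tp63 and Ngfr.

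No paired analysis was possible because the labels do not tie a specimen to a rat.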
